A study of Mus musculus with 30 samples.

Results

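The vascular endothelial growth factor (VEGF) genes described here are 3 ligands (Vegfa, Vegfb and Pgf), 2 receptor tyrosine kinases (Flt1 and Kdr) and 2 co-receptors (Nrp1 and Nrp2). They were found by gene name in the table of raw read counts, where each name stood on 1 gene identifier, so all 7 of 7 were present among 46603 genes. The study sequenced the RNA of tumour-associated macrophages (TAMs), sorted in bulk from subcutaneous 3LL-R tumours of WT C57BL/6 mice; 3LL-R is a line of Lewis lung carcinoma. TAMs were split by their surface level of major histocompatibility complex class II into MHC-IIlo and MHC-IIhi cells. Both subsets were taken in 3 states, each with 5 libraries per subset: cultured for 24 h with 20 mM sodium L-lactate, cultured for 24 h without lactate, or lysed directly after the sort (fresh). Every library of the 6 groups therefore came from the same strain, genotype and tumour line. Fresh libraries came from 30000 cells and cultures were started with 250000 cells, so culture and the difference in cell number cannot be told apart. The labels name biological replicates without saying whether each is a separate mouse, so p-values measure the spread between these samples. Values are given below in the order of library number, which runs from 1 to 5 in fresh groups and from 3 to 7 in no-lactate MHC-IIhi, and is 1, 3, 4, 5 and 6 in the other cultured groups.

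Total counts were 16913250 to 31481548 reads per library over the 30 libraries. H2-Ab1, which encodes a class II chain, fitted the labels in every state: with lactate it spanned 7.54 to 23.7 CPM (reads of a gene scaled to library size) in MHC-IIlo and 810.1 to 1311 CPM in MHC-IIhi. Without lactate these ranges were 15.04 to 73.2 CPM in MHC-IIlo and 780.5 to 1552 CPM in MHC-IIhi, and in fresh cells 54.2 to 124 CPM in MHC-IIlo and 4380 to 5331 CPM in MHC-IIhi. All 8 of 8 macrophage markers were detected in every library, with Adgre1 at 456 to 1325 CPM in 5 groups and 102 to 232 CPM in fresh MHC-IIhi. One library stood apart, number 5 of lactate MHC-IIlo, with a mean correlation of 0.961 with the others of its group, against 0.973 to 0.981 for those. Without it, both lactate calls in MHC-IIlo and both between lactate subsets held. The summed level of 7 dendritic cell markers moved with the subset in culture: it was 0.853 to 1.13 CPM in lactate MHC-IIlo against 93.4 to 266 CPM in lactate MHC-IIhi, and 0.503 to 4.42 CPM in no-lactate MHC-IIlo against 93.0 to 279.8 CPM in no-lactate MHC-IIhi, led by Ccr7, while Siglech was at 0 in all 20 cultured libraries. In fresh cells that sum was 2.28 to 4.41 CPM in MHC-IIlo against 18.1 to 35.6 CPM in MHC-IIhi, 6 neutrophil markers summed to 399.6 to 679 CPM in MHC-IIlo against 165 to 283 CPM in MHC-IIhi, and 5 epithelial markers summed to 135 to 279 CPM in MHC-IIlo against 498 to 576 CPM in MHC-IIhi. That epithelial sum rests on few genes: 2 of the 5 were tested between fresh subsets and 1 was called, lower in MHC-IIlo. Epcam and Krt18 were at 0 in every fresh MHC-IIlo library. In culture the neutrophil markers, mainly Mmp8, summed to 404 to 1674 CPM (MHC-IIlo) and 1572 to 2302 CPM (MHC-IIhi) with lactate, and to 742 to 1055 CPM (MHC-IIlo) and 701 to 1040 CPM (MHC-IIhi) without it. Summed markers of fibroblasts were 31.4 to 107 CPM in fresh MHC-IIlo and 19.03 to 66.8 CPM in fresh MHC-IIhi (3 of 6 tested higher), those of T and NK cells 1.70 to 2.29 CPM in MHC-IIlo and 4.94 to 6.55 CPM in MHC-IIhi, and those of B cells 0 to 0.130 CPM in MHC-IIlo and 1.41 to 5.79 CPM in MHC-IIhi. On culture without lactate, 4 of 6 fibroblast markers fell and 1 rose in MHC-IIlo, with sums of 39.7 to 73.6 CPM. The macrophage markers summed to 10360 to 14170 CPM in no-lactate MHC-IIlo against 19040 to 22930 CPM in fresh MHC-IIlo, and to 6344 to 13220 CPM in no-lactate MHC-IIhi against 17700 to 22580 CPM in fresh MHC-IIhi, and the epithelial markers to 44.5 to 60.5 CPM and 38.4 to 85.6 CPM in the same no-lactate groups. Single macrophage markers went both ways on culture: of 8, 3 rose and 4 fell in MHC-IIlo, and 4 rose and 4 fell in MHC-IIhi. The part of other cell types in the differences below was not tested. In bulk RNA, fewer cells of a type and less RNA per cell cannot be told apart.

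VEGF-A binds both FLT1 (VEGF receptor 1) and KDR (VEGF receptor 2), whereas VEGF-B and placental growth factor (the product of Pgf) bind FLT1 and not KDR. KDR is the main signalling receptor of blood vessel endothelium, FLT1 binds VEGF-A tightly but signals weakly and is also known from monocytes, and the neuropilins NRP1 and NRP2 bind both VEGF and class 3 semaphorins. Macrophages in tumours are a known source of VEGF-A, whose transcription rises in hypoxia through hypoxia-inducible factor (HIF).

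The 250 bases before the start site are shown for Vegfa, the ligand with the highest mean in fresh cells, for Flt1, the member that fell with lactate in both subsets, and for Kdr, which rose most in culture. The sequences are from RefSeq (GRCm38.p6), given 5′ to 3′ on the strand of the gene, and all 7 members matched that table. Capitals mark the letters of a searched motif on either strand: ACGTG and GCGTG (HIF cores), GAAA followed by any 2 bases and GAAA (interferon-stimulated response element, ISRE), TTCNNNGAA (gamma-activated site), TGANTCA (AP-1) and GGGCGG (SP1 box). The last bases of the Kdr window lie in the first exon of the annotation that the count table uses.
Vegfa, chr17:46032378-46032627, minus strand: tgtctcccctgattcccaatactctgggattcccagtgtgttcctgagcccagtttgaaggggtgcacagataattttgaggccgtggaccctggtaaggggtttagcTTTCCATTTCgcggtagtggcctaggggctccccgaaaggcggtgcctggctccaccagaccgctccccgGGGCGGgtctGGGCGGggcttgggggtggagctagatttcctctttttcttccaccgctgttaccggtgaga
Flt1, chr5:147726012-147726261, minus strand: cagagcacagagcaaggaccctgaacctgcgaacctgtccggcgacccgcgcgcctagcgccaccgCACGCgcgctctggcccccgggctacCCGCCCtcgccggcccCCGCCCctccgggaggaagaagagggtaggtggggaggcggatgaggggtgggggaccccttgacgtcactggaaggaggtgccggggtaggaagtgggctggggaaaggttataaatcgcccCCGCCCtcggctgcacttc
Kdr, chr5:75978456-75978705, minus strand: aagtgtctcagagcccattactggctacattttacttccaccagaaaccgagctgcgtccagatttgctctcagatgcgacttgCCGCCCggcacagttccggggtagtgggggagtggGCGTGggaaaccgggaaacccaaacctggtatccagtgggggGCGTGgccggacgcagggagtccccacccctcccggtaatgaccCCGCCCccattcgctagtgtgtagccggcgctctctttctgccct
The Vegfa window held 1 ISRE match, 142 bases before the start, and 2 SP1 boxes but neither HIF core. Flt1 held 1 GCGTG and 3 SP1 boxes, and Kdr held 2 GCGTG and 2 SP1 boxes, with none of the other letters. Over the windows of the 7 members, GCGTG was in 6 (all but Vegfa) and in 28.3% of 27025 promoters of the same length, and the SP1 box was in 7 and in 33.0% of promoters. The ISRE was in 1 (3.05% of promoters), while ACGTG (16.5%), the gamma-activated site (7.14%) and AP-1 (6.85%) were in 0. A match or its absence in this window is a description of letters only.

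Levels between genes were compared per kilobase of gene length. In fresh cells Vegfa had the highest mean of the 7 in both subsets, at 86.3 ± 40.1 CPM per kb in MHC-IIlo and 79.3 ± 39.2 CPM per kb in MHC-IIhi (SD, n = 5 each), and the receptor kinases had the lowest. Nrp1 was above Vegfa in fresh MHC-IIlo libraries 1 (70.0 against 61.2 CPM per kb) and 2 (53.5 against 52.6). Pgf was above Vegfa in fresh MHC-IIhi library 2 (40.7 against 39.2 CPM per kb). In culture Nrp2 stood first or second, at 58.9 to 65.5 CPM per kb on average in the 4 cultured groups. Kdr was at 22.7 to 42.5 CPM per kb on average in these groups, against 0.965 in fresh MHC-IIlo and 0.377 in fresh MHC-IIhi. Flt1 was at or under 0.571 CPM per kb on average in all 6 groups.

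Among the 3 ligands, Vegfa made up a median of 66.4% of the summed per-length level in fresh MHC-IIlo and 54.3% in fresh MHC-IIhi. Its median share was 34.2% in no-lactate MHC-IIlo and 31.7% in no-lactate MHC-IIhi, while Pgf had 35.1% and 64.3% there. Among the 4 receptors, Kdr had a median share of 25.6% in no-lactate MHC-IIlo and 33.1% in no-lactate MHC-IIhi, against 0.907% in fresh MHC-IIlo and 0.884% in fresh MHC-IIhi. Within a library, the per-length level of Kdr was a median of 122 times that of Flt1 in no-lactate MHC-IIlo and 142 times in no-lactate MHC-IIhi. In fresh MHC-IIhi the order was the other way, with Flt1 at a median of 1.30 times Kdr.

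**Figure D1:**
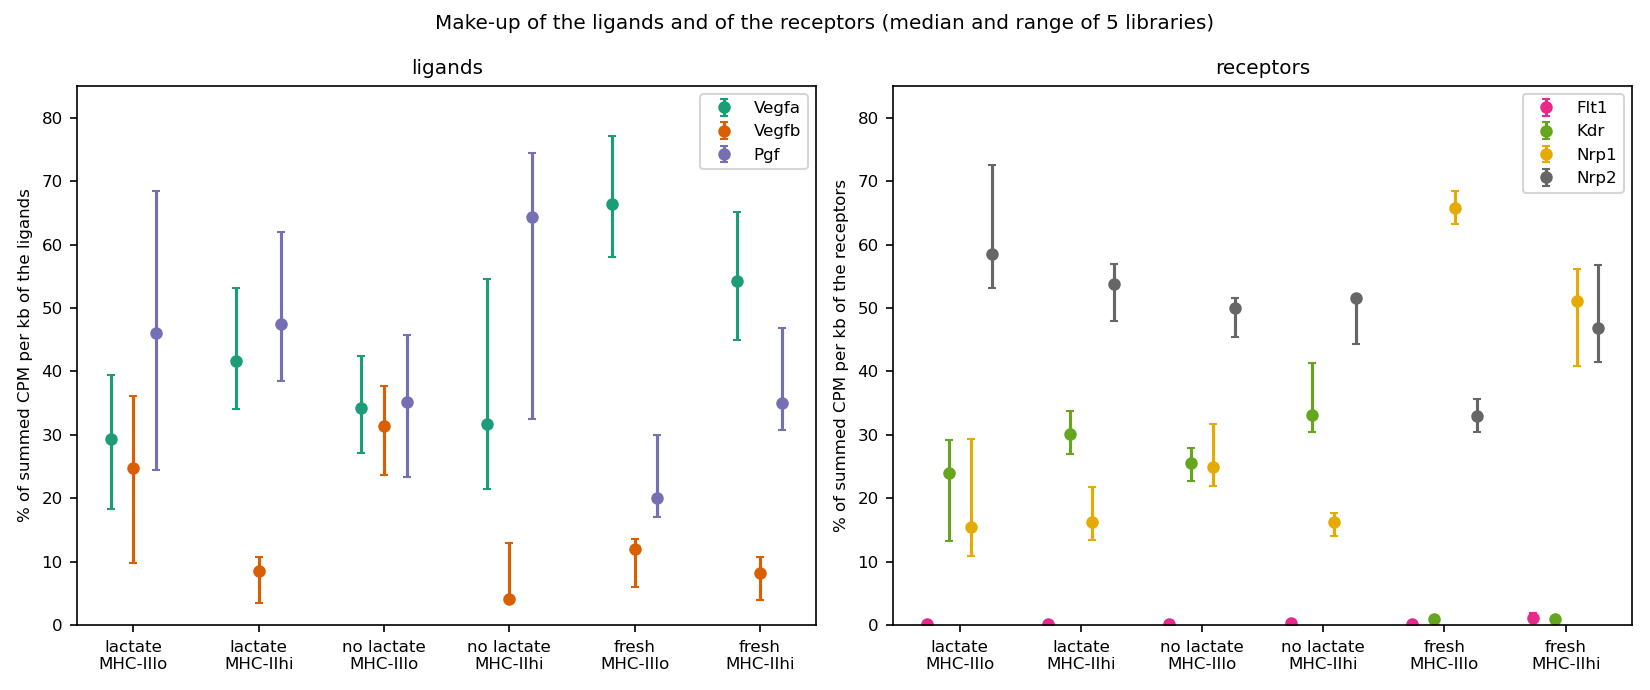
Share of each ligand in the summed per-length level of the 3 ligands (left) and of each receptor in that of the 4 receptors (right), in % of summed CPM per kb; points are medians and bars the range of 5 libraries per group. Kdr lies near 0 in both fresh groups (medians 0.907% and 0.884%) and between 24.0% and 33.1% in the cultured groups, while the Nrp1 share is highest in fresh MHC-IIlo (65.8%).

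The members were tested in 7 pairwise comparisons and 2 comparisons of effects with the edgeR quasi-likelihood test, and a gene was called at an adjusted p under 0.05 over all genes tested; all 7 passed the filter on low counts in each. Between the subsets (MHC-IIlo over MHC-IIhi), 6 of 7 were called in fresh cells (29.2% of all genes tested), 4 without lactate (20.8%) and 2 with lactate (22.4%). In fresh cells 4 members were higher in MHC-IIlo (14% of genes) and 2 lower (15.2%), without lactate 2 were higher (9.2%) and 2 lower (11.6%), and with lactate 1 was higher (9.13%) and 1 lower (13.3%). Lactate over no lactate gave 2 in MHC-IIlo (1.49% of genes), 1 higher (0.905%) and 1 lower (0.581%), and 1 in MHC-IIhi (0.25%), which was lower (0.0441%; 0.206% of genes were higher). Culture without lactate over fresh gave 6 in MHC-IIlo (57.5%), 2 higher (27.6%) and 4 lower (29.9%), and 5 in MHC-IIhi (62%), 2 higher (31.6%) and 3 lower (30.4%). The culture effect itself differed between the subsets for 5 of 7 members (14.3% of genes). The difference, MHC-IIlo minus MHC-IIhi, was negative for all 5 (8.27% of genes, against 6.03% with a positive one), which for Kdr and Nrp2 was a smaller rise in MHC-IIlo.

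Libraries of the groups did not overlap for 4 members between fresh subsets (21.4% of genes), 3 between no-lactate subsets (19.1%) and 1 between lactate subsets (12.8%). For lactate over no lactate this held for 3 members in MHC-IIlo (5.35%) and 1 in MHC-IIhi (1.95%). For culture over fresh it held for 6 in MHC-IIlo (45%) and 3 in MHC-IIhi (44.4%). Comparisons of one group with several others share its libraries, so they are not independent of each other.

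The effect of lactate did not pass the test of a difference between the subsets for any member (smallest adjusted p 0.63), nor for any of 13593 genes with edgeR, where 1018 genes (7.49%) had an unadjusted p under 0.05. DESeq2 called 3 genes and limma voom 2 in that comparison, none of them a member, and edgeR called 8 genes without library 1 of lactate MHC-IIlo.

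**Figure D2:**
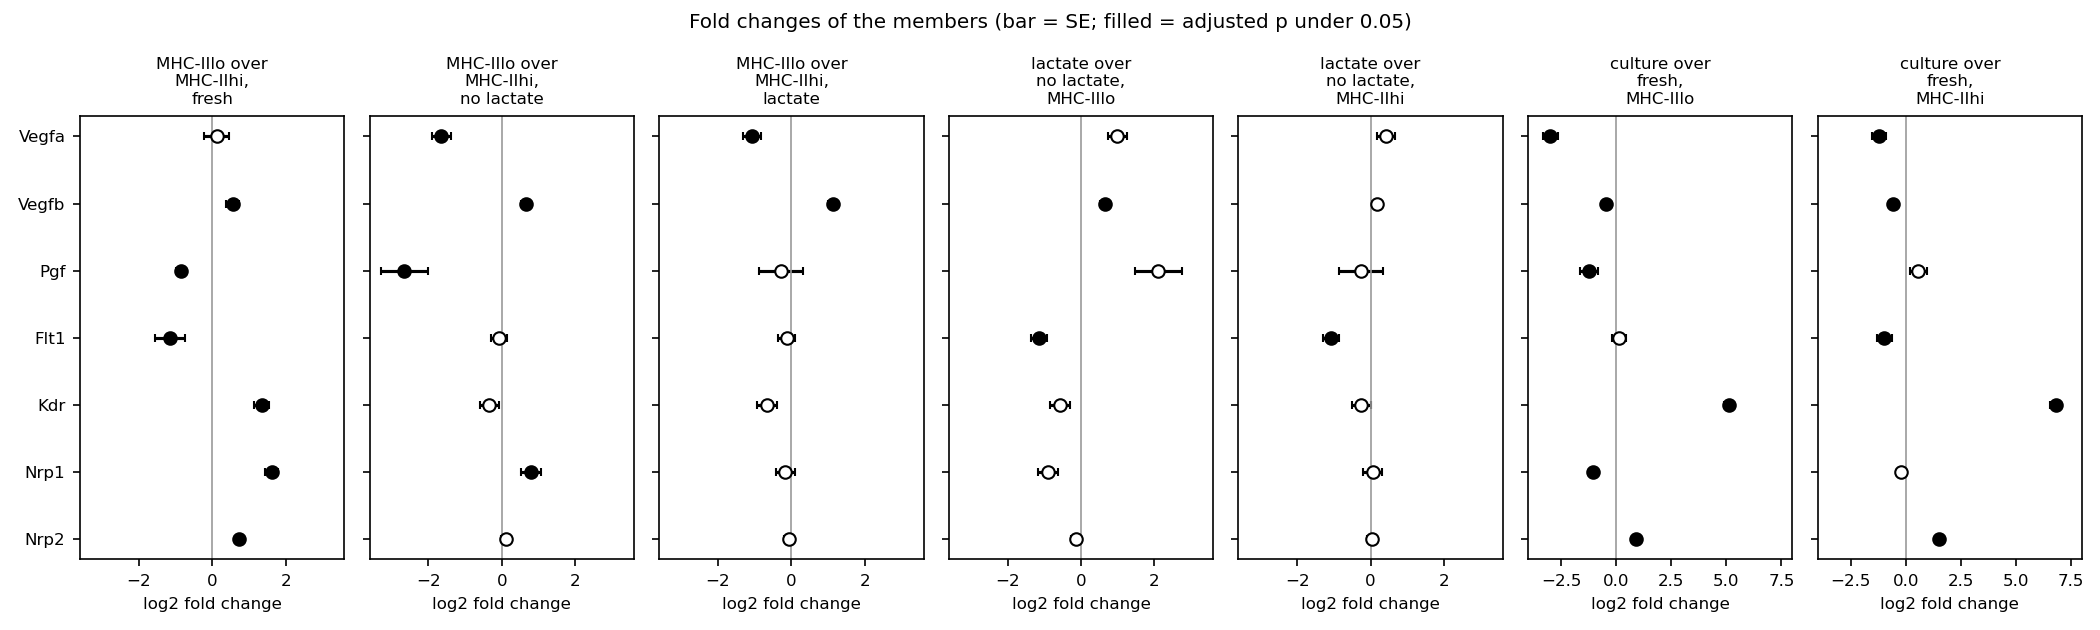
Log2 fold change (x axis) of each member (y axis) in the 7 pairwise comparisons; points are edgeR estimates from 5 libraries per group, bars are SE, and filled points have an adjusted p under 0.05. The culture panels have a wider x axis than the others; Kdr stands at 5.11 in MHC-IIlo and 6.80 in MHC-IIhi there.

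Vegfa (ENSMUSG00000023951, chr17:46016993-46032377, minus strand, GRCm38) encodes the main angiogenic ligand. Its level overlapped between the subsets in fresh cells, was lower in MHC-IIlo than in MHC-IIhi after culture, and fell on culture in both subsets, more so in MHC-IIlo.
With lactate, Vegfa was at 64.6, 81.8, 102, 140.3 and 81.6 CPM in the 5 MHC-IIlo libraries, against 101, 155, 197, 207 and 313 CPM in MHC-IIhi. Without lactate it was at 45.6, 50.5, 57.9, 50.00 and 33.6 CPM in MHC-IIlo, against 163, 179.7, 118, 97.7 and 179 CPM in MHC-IIhi. Fresh, it was at 263, 226, 293, 649 and 423 CPM in MHC-IIlo, against 230.2, 168, 266, 554 and 483 CPM in MHC-IIhi.
The no-lactate subsets did not overlap, while the lactate subsets and the fresh subsets did, and libraries 4 and 5 were the highest of both fresh subsets. Means were 47.5 ± 8.94 CPM in no-lactate MHC-IIlo and 148 ± 37.4 CPM in no-lactate MHC-IIhi (SD, n = 5 each), 3.13-fold lower in MHC-IIlo (log2 fold change -1.65 ± 0.26 SE, adjusted p = 7.95e-05). With lactate the subsets differed by -1.07 ± 0.25 (log2, SE, adjusted p = 0.00441), and when fresh by 0.12 ± 0.34 (adjusted p = 0.838, 95% interval -0.54 to 0.79). Over 9 other settings, which included a block on the replicate number, the fresh difference was 0.12 to 0.31 and was not called.
Lactate was followed by higher Vegfa in each of 5 MHC-IIlo libraries than in any no-lactate MHC-IIlo library, at 93.97 ± 29 CPM against 47.5 ± 8.94 CPM (SD, n = 5 each). This missed the threshold (log2 fold change 0.99 ± 0.25 SE, adjusted p = 0.0523) and passed it with DESeq2 (0.00756), limma voom (0.00602), no filter on low counts (0.0454) and without library 1 of lactate MHC-IIlo (0.0207). In MHC-IIhi the lactate and no-lactate libraries overlapped (log2 fold change 0.41 ± 0.25 SE, adjusted p = 0.624).
Culture without lactate gave 7.95-fold lower Vegfa than in fresh cells in MHC-IIlo (log2 fold change -2.99 ± 0.33 SE, adjusted p = 9.67e-08), with no overlap, and 2.33-fold lower in MHC-IIhi (log2 fold change -1.22 ± 0.31 SE, adjusted p = 0.0017), where the groups overlapped. The changes differed by -1.77 ± 0.44, with the larger fall in MHC-IIlo (log2, SE; adjusted p = 0.00827). In the order of group means, fresh MHC-IIlo and fresh MHC-IIhi came first, then the MHC-IIhi cultures, lactate MHC-IIlo and no-lactate MHC-IIlo, and of these neighbours the last pair alone had no overlap.

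**Figure D3:**
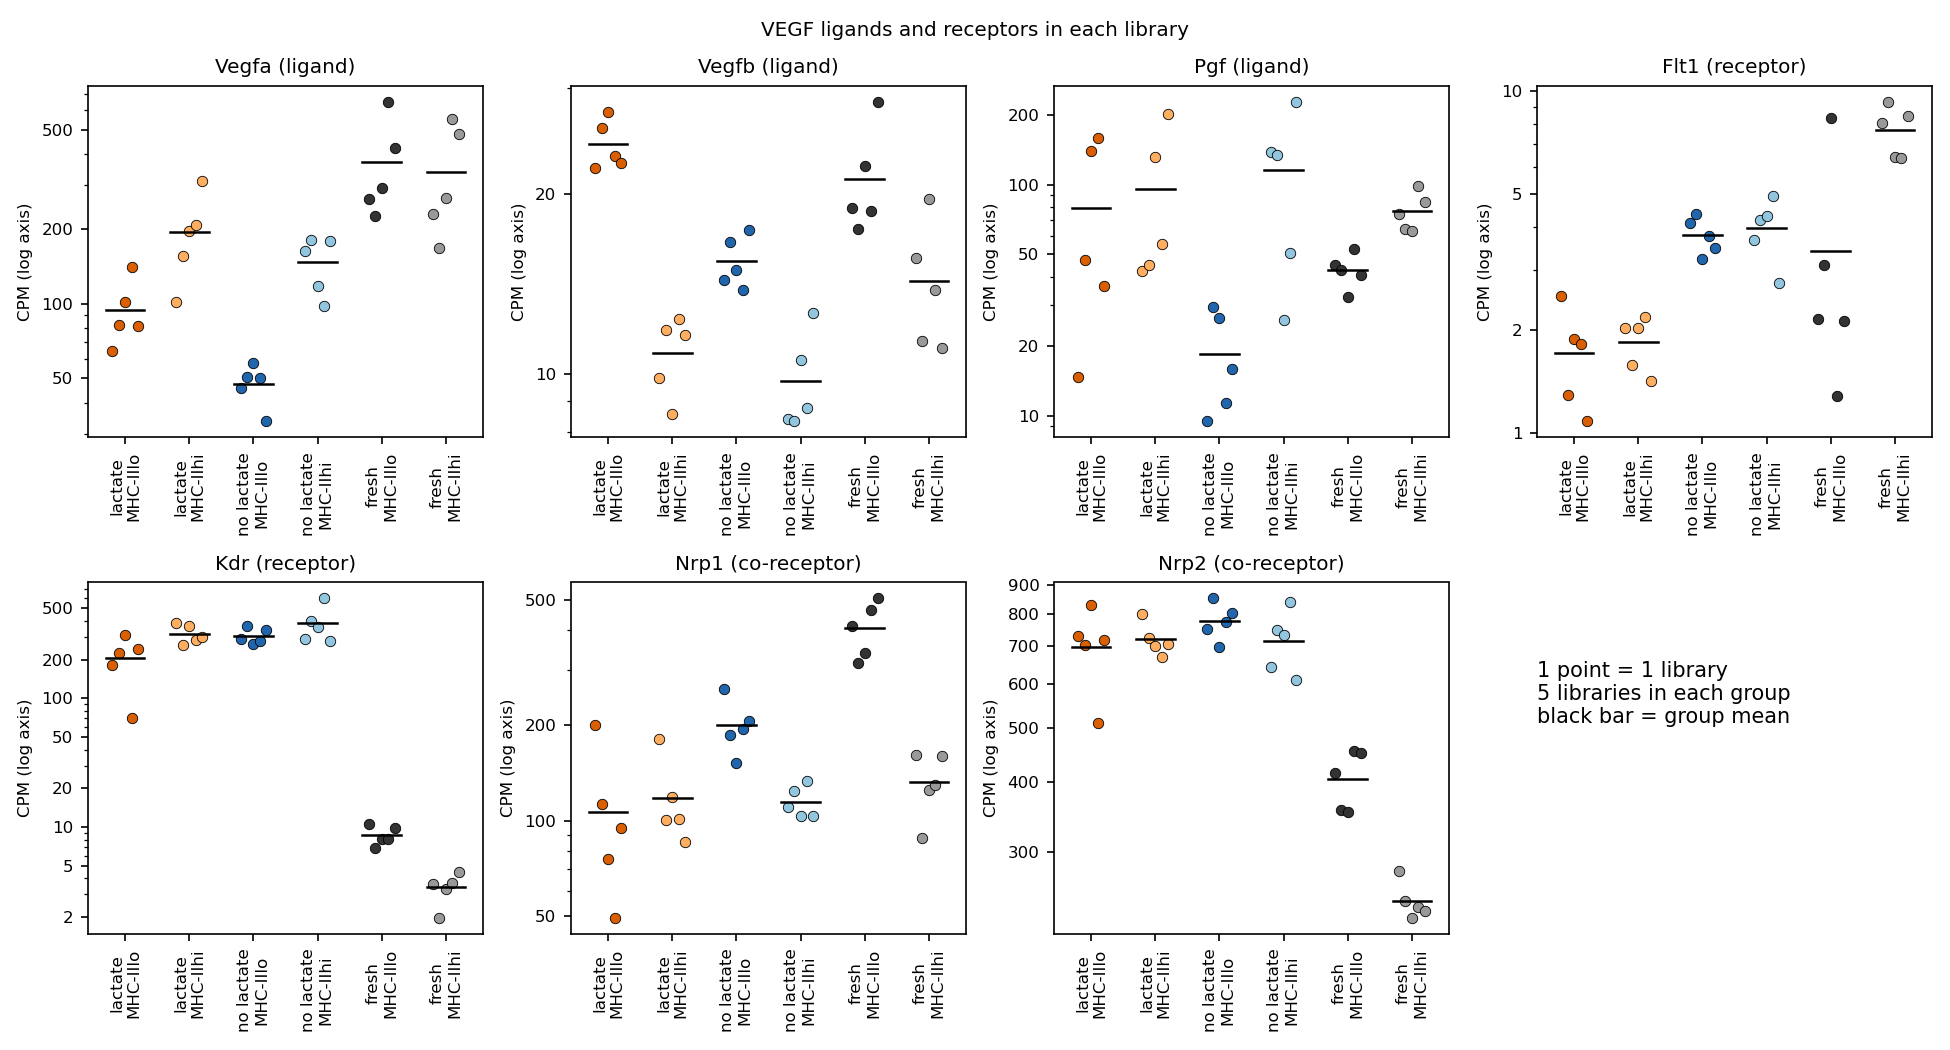
CPM (y axis, log scale) of each member in every library of the 6 groups; each point is 1 library (n = 5 per group) and black bars are group means. Vegfa is lowest in no-lactate MHC-IIlo (47.5 ± 8.94 CPM), Kdr lies at or above 70.6 CPM in all cultured libraries and at or under 10.7 CPM in all fresh ones, and 1 fresh MHC-IIlo library stands far above the other 4 for Flt1.

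Vegfb (ENSMUSG00000024962, chr19:6982473-6987651, minus strand) encodes a ligand of FLT1 that is best known from heart and fat tissue. It was higher in MHC-IIlo than in MHC-IIhi in all 3 states.
With lactate it was at 22.1, 25.7, 27.4, 23.2 and 22.5 CPM in MHC-IIlo, against 9.84, 11.8, 8.58, 12.4 and 11.6 CPM in MHC-IIhi. Without lactate the values were 14.4, 16.6, 14.9, 13.8 and 17.4 CPM in MHC-IIlo and 8.40, 8.34, 10.5, 8.78 and 12.6 CPM in MHC-IIhi. Fresh cells had 18.96, 17.4, 22.2, 18.7 and 28.4 CPM in MHC-IIlo and 15.6, 11.4, 19.6, 13.8 and 11.1 CPM in MHC-IIhi.
Neither cultured pair overlapped, and the fresh pair overlapped through library 3 of MHC-IIhi. The subset difference was 1.13 ± 0.13 with lactate (log2, SE; adjusted p = 2.2e-06), 0.65 ± 0.13 without lactate (0.000923) and 0.56 ± 0.18 in fresh cells (0.0336). The fresh call was lost on leaving out any of 5 of the 10 libraries (MHC-IIlo 3 or 5, MHC-IIhi 2, 4 or 5; adjusted p 0.0595 to 0.0893).
With lactate Vegfb rose in MHC-IIlo to 24.2 ± 2.29 CPM, against 15.4 ± 1.51 CPM without it (SD, n = 5 each), a 1.57-fold rise with no overlap (log2 fold change 0.65 ± 0.13 SE, adjusted p = 0.015). In MHC-IIhi the difference was 0.17 ± 0.13 (adjusted p = 0.726, 95% interval -0.087 to 0.42). On culture without lactate Vegfb fell by 0.48 ± 0.16 in MHC-IIlo (log2, SE; adjusted p = 0.0149) and by 0.56 ± 0.17 in MHC-IIhi (0.00575). Both culture calls were lost on the authors' FPKM (adjusted p 0.332 in MHC-IIlo and 0.154 in MHC-IIhi at a pseudocount of 1), and the MHC-IIlo call also without library 5 of fresh MHC-IIlo (0.0678). By group mean, lactate MHC-IIlo came first, then fresh MHC-IIlo, no-lactate MHC-IIlo, fresh MHC-IIhi, lactate MHC-IIhi and no-lactate MHC-IIhi, and of these neighbours fresh and no-lactate MHC-IIlo alone had no overlap.

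Pgf (ENSMUSG00000004791, chr12:85166639-85177296, minus strand) encodes placental growth factor, a FLT1 ligand that can draw in monocytes. It was lower in MHC-IIlo than in MHC-IIhi in fresh cells and without lactate, and of the members it had the highest coefficient of variation in each of the 4 cultured groups (48.4% to 82.2%).
With lactate Pgf was at 14.7, 47.2, 139.7, 159 and 36.4 CPM in MHC-IIlo, against 42.5, 44.8, 132, 55.4 and 202 CPM in MHC-IIhi. Without lactate it was at 9.46, 29.5, 26.4, 11.4 and 15.96 CPM in MHC-IIlo, against 138, 134, 25.96, 50.6 and 228 CPM in MHC-IIhi. Fresh libraries had 44.8, 42.8, 32.6, 52.6 and 40.5 CPM in MHC-IIlo, against 74.5, 64.4, 63.2, 98.9 and 83.96 CPM in MHC-IIhi.
The fresh subsets did not overlap, whereas both cultured pairs did, and the highest lactate MHC-IIlo library had 10.8 times the level of the lowest. Fresh MHC-IIlo had 1.81-fold less Pgf (log2 fold change -0.85 ± 0.13 SE, adjusted p = 0.000409), a call lost when all 30 libraries were fitted together (0.279). Without lactate MHC-IIlo had 6.28-fold less (log2 fold change -2.65 ± 0.65 SE, adjusted p = 0.00552), and with lactate the difference was -0.28 ± 0.61 (adjusted p = 0.791).
Lactate over no lactate gave 2.11 ± 0.64 in MHC-IIlo (log2, SE; adjusted p = 0.0923), which passed with DESeq2 (0.0265), limma voom (0.0495), all 30 libraries in the fit (0.0308) and without library 1 of lactate MHC-IIlo (0.0286). In MHC-IIhi it gave -0.26 ± 0.61 (0.924). Culture gave -1.23 ± 0.41 in MHC-IIlo (0.0134; 0.0533 with all 30 libraries in the fit) and 0.57 ± 0.39 in MHC-IIhi (0.21; 0.0314 without library 5 of no-lactate MHC-IIhi). The culture effects differed by -1.80 ± 0.56 (0.0355), a call lost when any of 11 of the 20 libraries was left out (0.0526 to 0.0776) and on FPKM (0.0763). Group means of Pgf ran downward from no-lactate MHC-IIhi over lactate MHC-IIhi, lactate MHC-IIlo and fresh MHC-IIhi to fresh MHC-IIlo and no-lactate MHC-IIlo, and neighbours overlapped except for the last 3 groups.

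Flt1 (ENSMUSG00000029648, chr5:147561604-147726011, minus strand) encodes the receptor shared by all 3 ligands. It had 25 to 193 reads per library, fewer than any other member in all 20 cultured libraries and fewer than Kdr in 4 of 5 libraries of fresh MHC-IIlo, while Kdr had fewer in fresh MHC-IIhi. It was the member that fell with lactate in both subsets.
With lactate Flt1 was at 2.51, 1.30, 1.89, 1.82 and 1.08 CPM in MHC-IIlo, against 2.03, 1.58, 2.02, 2.19 and 1.43 CPM in MHC-IIhi. Without lactate it was at 4.13, 4.38, 3.23, 3.77 and 3.48 CPM in MHC-IIlo, against 3.66, 4.19, 4.32, 4.92 and 2.76 CPM in MHC-IIhi. In fresh cells it was at 2.16, 3.10, 8.34, 1.29 and 2.13 CPM in MHC-IIlo, against 8.04, 9.28, 6.40, 6.35 and 8.46 CPM in MHC-IIhi.
All lactate libraries lay below all no-lactate libraries in both subsets, and fresh MHC-IIlo lay below fresh MHC-IIhi apart from its library 3. Lactate gave 2.20-fold lower Flt1 in MHC-IIlo (log2 fold change -1.14 ± 0.22 SE, adjusted p = 0.015) and 2.11-fold lower in MHC-IIhi (log2 fold change -1.08 ± 0.22 SE, adjusted p = 0.0392). The MHC-IIhi call was lost on leaving out any of 9 of the 10 libraries (0.0558 to 0.139; all but library 7 of no-lactate MHC-IIhi), with no filter on low counts (0.0578) and with all 30 libraries in 1 fit (0.162).
Between cultured subsets Flt1 differed by -0.13 ± 0.23 with lactate (0.731, 95% interval -0.57 to 0.31) and -0.074 ± 0.21 without (0.853, -0.49 to 0.34). Fresh MHC-IIlo was 2.23-fold below fresh MHC-IIhi (log2 fold change -1.16 ± 0.41 SE, adjusted p = 0.0479). That call depended on the libraries: without library 3 of fresh MHC-IIlo the difference was -1.83 (adjusted p = 2.13e-04), while leaving out any other of the 10 lost it (0.061 to 0.109), as did another scaling of the counts (RLE, 0.0502).
Library 3 of fresh MHC-IIlo was also the highest of its group for 9 of 11 endothelial markers (all but Pecam1 and Sox17), with Cdh5 (VE-cadherin) at 23.03 CPM and Tie1 at 3.50 CPM. The 10 markers other than Pecam1 summed to 40.0 CPM there, against 11.6 to 13.9 CPM in the other 4 libraries of fresh MHC-IIlo and 4.72 to 7.62 CPM in fresh MHC-IIhi. Their part in the Flt1 level of that library was not tested.
Culture without lactate gave -0.97 ± 0.32 in MHC-IIhi (0.0128) with no overlap, and 0.12 ± 0.33 in MHC-IIlo (0.77). Without library 3 of fresh MHC-IIlo, the MHC-IIlo value was 0.78 (adjusted p = 0.0053) and the difference between the culture effects was 1.75 (4.97e-04), against 1.09 ± 0.46 (0.123) with it. With that library kept, the difference also passed with limma voom and quality weights (1.61, 0.00286) and on log2(FPKM + 1) without a filter (0.34, 0.0153). Fresh MHC-IIhi had the highest mean and did not overlap with the next group, no-lactate MHC-IIhi, while no-lactate MHC-IIlo, fresh MHC-IIlo, lactate MHC-IIhi and lactate MHC-IIlo followed, each overlapping with its neighbour.

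Kdr (ENSMUSG00000062960, chr5:75932827-75978458, minus strand) encodes the receptor that carries most VEGF-A signalling in endothelium. It was near the bottom of the members in fresh TAMs, higher in MHC-IIlo, and rose in culture in both subsets.
With lactate Kdr was at 181, 225, 309, 70.6 and 242 CPM in MHC-IIlo, against 382, 261, 366, 282 and 302 CPM in MHC-IIhi. Without lactate it was at 286, 362, 264, 279 and 340.5 CPM in MHC-IIlo, against 289, 399, 356, 596 and 277 CPM in MHC-IIhi. Fresh libraries were at 10.7, 6.93, 8.04, 8.14 and 9.81 CPM in MHC-IIlo, against 3.59, 1.98, 3.30, 3.66 and 4.48 CPM in MHC-IIhi.
No cultured library overlapped any fresh one, and the lowest cultured value was that of lactate MHC-IIlo library 5, the library that stood apart. Culture without lactate gave 34.5-fold higher Kdr in MHC-IIlo (log2 fold change 5.11 ± 0.22 SE, adjusted p = 3.89e-14) and 111-fold higher in MHC-IIhi (log2 fold change 6.80 ± 0.24 SE, adjusted p = 1.51e-15). The size of this change was above that of 98.9% of genes tested in MHC-IIlo and 99.5% in MHC-IIhi. The changes differed by -1.69 ± 0.29, with the smaller rise in MHC-IIlo (log2, SE, adjusted p = 0.000386). Fresh MHC-IIhi had 36 to 89 Kdr reads per library, and the size of these values depended on the setting. Over 8 other settings the log2 change was 4.3 to 5.22 in MHC-IIlo and 5.07 to 6.82 in MHC-IIhi. The difference between the changes was -1.70 to -0.78, and all were called in each setting.
Fresh MHC-IIlo had 2.55-fold more Kdr than fresh MHC-IIhi, with no overlap (log2 fold change 1.35 ± 0.21 SE, adjusted p = 0.000354). The cultured subsets overlapped, with differences of -0.66 ± 0.26 with lactate (0.0781) and -0.34 ± 0.26 without (0.412). The first of these passed without library 4 of lactate MHC-IIlo (-0.86, adjusted p = 0.0335) and with all 30 libraries in the fit (0.0485). Lactate over no lactate gave -0.58 ± 0.26 in MHC-IIlo (0.26) and -0.25 ± 0.26 in MHC-IIhi (0.807). The 4 cultured groups were thus neighbours in the order of means with overlapping libraries (no-lactate MHC-IIhi, lactate MHC-IIhi, no-lactate MHC-IIlo, lactate MHC-IIlo), and fresh MHC-IIlo and then fresh MHC-IIhi lay below them with no overlap.
The 11 endothelial markers summed to less in cultured than in fresh libraries. They summed with lactate to 12.9 to 24.1 CPM (MHC-IIlo) and 34.6 to 56.8 CPM (MHC-IIhi), without lactate to 11.6 to 16.7 CPM (MHC-IIlo) and 39.6 to 53.6 CPM (MHC-IIhi), and fresh to 84.9 to 109 CPM (MHC-IIlo) and 91.2 to 125 CPM (MHC-IIhi). Without Pecam1 the other 10 summed to 6.69 to 15.8 CPM over all cultured libraries. In no-lactate MHC-IIlo their sum was 6.69 to 9.41 CPM, below each fresh MHC-IIlo library (11.6 to 13.9 CPM, and 40.0 CPM in library 3). In no-lactate MHC-IIhi it was 9.84 to 13.3 CPM, above each fresh MHC-IIhi library (4.72 to 7.62 CPM). Both contrasts rested on Cdh5, and with Cdh5 also left out the groups overlapped. The sum was then 1.61 to 2.65 CPM in no-lactate MHC-IIhi against 1.66 to 3.06 CPM in fresh MHC-IIhi. For MHC-IIlo it was 1.07 to 2.3 CPM without lactate against 1.99 to 16.9 CPM in fresh cells. Of the 11, 4 to 6 were detected in each cultured library, Emcn, Robo4 and Sox17 were at 0 in all 20 of them, and Tie1 was at or under 0.124 CPM. Esam and Egfl7 were detected in each cultured library. Cdh5, a cadherin of endothelial junctions, had 4.80 to 7.11 CPM in no-lactate MHC-IIlo against 7.71 to 23.03 CPM in fresh MHC-IIlo, and 7.50 to 10.96 CPM in no-lactate MHC-IIhi against 2.35 to 4.93 CPM in fresh MHC-IIhi. Of the 4 endothelial markers tested on culture, Cdh5 and Pecam1 fell and 0 rose in MHC-IIlo, while in MHC-IIhi Cdh5 rose and Pecam1 fell.

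**Figure D4:**
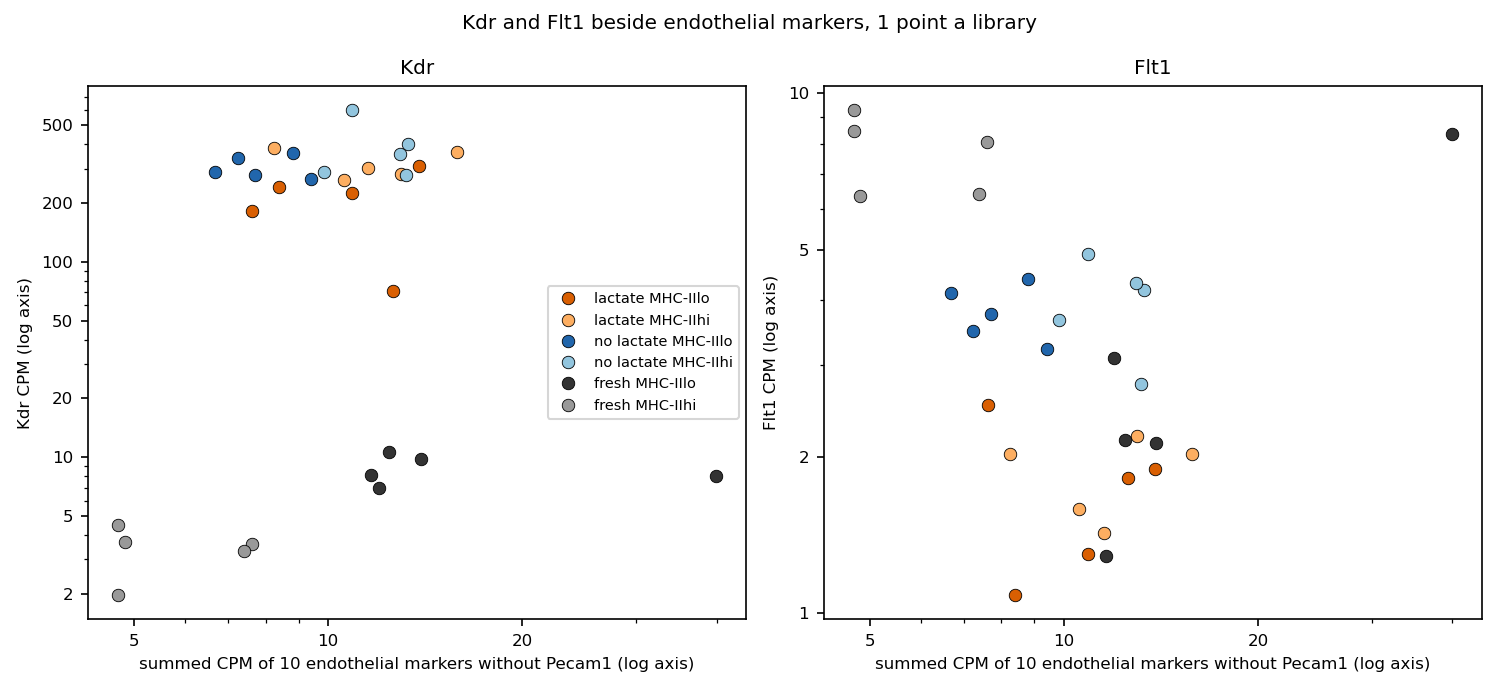
CPM of Kdr (left) and Flt1 (right) on the y axes against the summed CPM of 10 endothelial markers without Pecam1 on the x axes, all on log scales, with 1 point per library and colours for the 6 groups. The 20 cultured libraries are at 70.6 to 596 CPM of Kdr with 6.69 to 15.8 CPM of the markers, and the fresh MHC-IIlo library with the most marker reads (40.0 CPM) has 8.04 CPM of Kdr and 8.34 CPM of Flt1.

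Nrp1 (ENSMUSG00000025810, chr8:128359073-128505462, plus strand) encodes a co-receptor that presents VEGF-A to KDR and also binds SEMA3A. The Mir1903 gene overlaps an exon of Nrp1 and had 0 reads in every library. How reads lying in both genes were counted is not given in the sources used here. Nrp1 was highest in fresh MHC-IIlo cells, and was lower there after culture.
With lactate it was at 201, 113, 75.6, 49.2 and 94.6 CPM in MHC-IIlo, against 181, 101, 119, 101 and 85.3 CPM in MHC-IIhi. Without lactate MHC-IIlo had 261, 186, 152, 195 and 207 CPM, against 110.0, 124, 104, 133 and 103 CPM in MHC-IIhi. Fresh MHC-IIlo had 414, 316, 339, 462 and 505 CPM, against 161, 88.2, 125, 129 and 159.6 CPM in MHC-IIhi.
The fresh and the no-lactate subsets did not overlap, and the lactate subsets did. Fresh MHC-IIlo had 3.07-fold more Nrp1 (log2 fold change 1.62 ± 0.17 SE, adjusted p = 1.82e-05). Without lactate MHC-IIlo had 1.73-fold more (log2 fold change 0.79 ± 0.27 SE, adjusted p = 0.0397), a call lost on leaving out any of 8 of the 10 libraries (0.0578 to 0.108), and with lactate the difference was -0.16 ± 0.27 (0.711, 95% interval -0.68 to 0.36).
After culture Nrp1 was 2.07-fold lower in MHC-IIlo with no overlap (log2 fold change -1.05 ± 0.16 SE, adjusted p = 1.11e-05), and gave -0.22 ± 0.16 in MHC-IIhi (0.245; 0.0149 on FPKM). The culture effects differed by -0.83 ± 0.23 (0.018; 0.141 with all 30 libraries in the fit). Lactate over no lactate gave -0.90 ± 0.27 in MHC-IIlo (0.0853), which passed with DESeq2 (0.0248), limma voom (0.00261), log2(FPKM + 1) (0.0484) and all 30 libraries in the fit (0.0409). Library 1 of the lactate group was the highest of its group, and without it the value was -1.27 (0.00498). In MHC-IIhi it gave 0.052 ± 0.27 (0.968). Behind fresh MHC-IIlo, which did not overlap with the next group, came no-lactate MHC-IIlo, fresh MHC-IIhi, lactate MHC-IIhi, no-lactate MHC-IIhi and lactate MHC-IIlo, all overlapping with their neighbours.

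Nrp2 (ENSMUSG00000025969, chr1:62703285-62818695, plus strand) encodes the co-receptor known for VEGF-C and SEMA3F binding. It was higher in MHC-IIlo than in MHC-IIhi in fresh cells, and rose in both subsets in culture, where the subsets overlapped.
With lactate Nrp2 was at 729, 703, 831, 510.1 and 717 CPM in MHC-IIlo, against 799, 724, 700.2, 668 and 707 CPM in MHC-IIhi. Without lactate it was at 750.4, 852, 697, 773 and 803 CPM in MHC-IIlo, against 644, 747, 733, 839 and 608 CPM in MHC-IIhi. In fresh cells MHC-IIlo had 415, 357, 354, 455 and 450.4 CPM, against 278, 246, 229, 239 and 236 CPM in MHC-IIhi.
All no-lactate libraries lay above all fresh ones of the same subset, and fresh MHC-IIlo lay above fresh MHC-IIhi. The fresh subsets differed 1.65-fold (log2 fold change 0.72 ± 0.088 SE, adjusted p = 6.4e-05). After culture Nrp2 was 1.87-fold higher in MHC-IIlo (log2 fold change 0.90 ± 0.10 SE, adjusted p = 1.43e-07) and 2.89-fold in MHC-IIhi (log2 fold change 1.53 ± 0.10 SE, adjusted p = 4.54e-11), and these effects differed by -0.62 ± 0.14 (0.00518).
Neither lactate nor subset gave a call for Nrp2 among cultured cells, whose libraries overlapped and whose means ranked in the order no-lactate MHC-IIlo, lactate MHC-IIhi, no-lactate MHC-IIhi and lactate MHC-IIlo. The 95% intervals of the log2 fold change were -0.38 to 0.084 for lactate in MHC-IIlo and -0.21 to 0.26 in MHC-IIhi, and -0.30 to 0.16 and -0.13 to 0.34 for MHC-IIlo over MHC-IIhi with and without lactate. Within a library, the per-length level of Nrp1 was a median of 2.00 times that of Nrp2 in fresh MHC-IIlo and 1.09 times in fresh MHC-IIhi, and 0.264 to 0.505 times in the cultured groups.

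The genes whose log2 CPM followed each member most closely over the 30 libraries, of 8607 candidates, were described by Pearson's r with no test, since both values of a point come from 1 library and libraries share their group. Kdr was followed most closely by Ifi204 (r = 0.994), Parp14 (0.992) and Irf7 (0.991), and within groups (deviations from group means) these had r of 0.863, 0.764 and 0.808. Irf7, a transcription factor of the type I interferon response, spanned 1298 to 3875 CPM (MHC-IIlo) and 2122 to 3927 CPM (MHC-IIhi) with lactate, 2722 to 4150 CPM (MHC-IIlo) and 2297 to 3626 CPM (MHC-IIhi) without it, and 147 to 194 CPM (MHC-IIlo) and 72.8 to 129 CPM (MHC-IIhi) in fresh cells. Its lowest cultured library was that of the lowest cultured Kdr.
Vegfa was followed by Errfi1 (0.967), an inhibitor of epidermal growth factor receptors, Cxcl2 (0.964), a neutrophil chemokine, and Hk2 (0.959), a hexokinase of glycolysis, with within-group r of 0.904, 0.833 and 0.865. Errfi1 was at 30.6 to 42.5 CPM in no-lactate MHC-IIlo, the group with the lowest Vegfa, and at 143 to 302 CPM in fresh MHC-IIlo. Nrp2 was followed by Cd47 (0.972), Ddx60 (0.971) and Slc31a2 (0.968), Nrp1 by Snx24 (0.939), Itsn1 (0.932) and Stard8 (0.928), and Pgf by Dcaf12 (0.895), Tes (0.891) and Paip2 (0.881). Vegfb was followed by Lzts2 (0.915), Dnm1 (0.83) and Zdhhc8 (0.829), and Flt1 by Meaf6 (0.837), Ptpn22 (0.798) and Ap4s1 (0.78), with within-group r at or under 0.67 for these 6. Among the members, Kdr and Nrp2 had the highest r (0.96, and 0.755 within groups), and Vegfa and Pgf had 0.577 (0.606 within groups). Negative values were of similar size, with Vegfa at -0.676 with Kdr and -0.677 with Nrp2 (-0.109 and -0.217 within groups). Within groups Nrp1 had r of -0.551 with Pgf, 0.549 with Nrp2 and 0.544 with Kdr (-0.494, -0.184 and -0.372 over the 30 libraries).

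**Figure D5:**
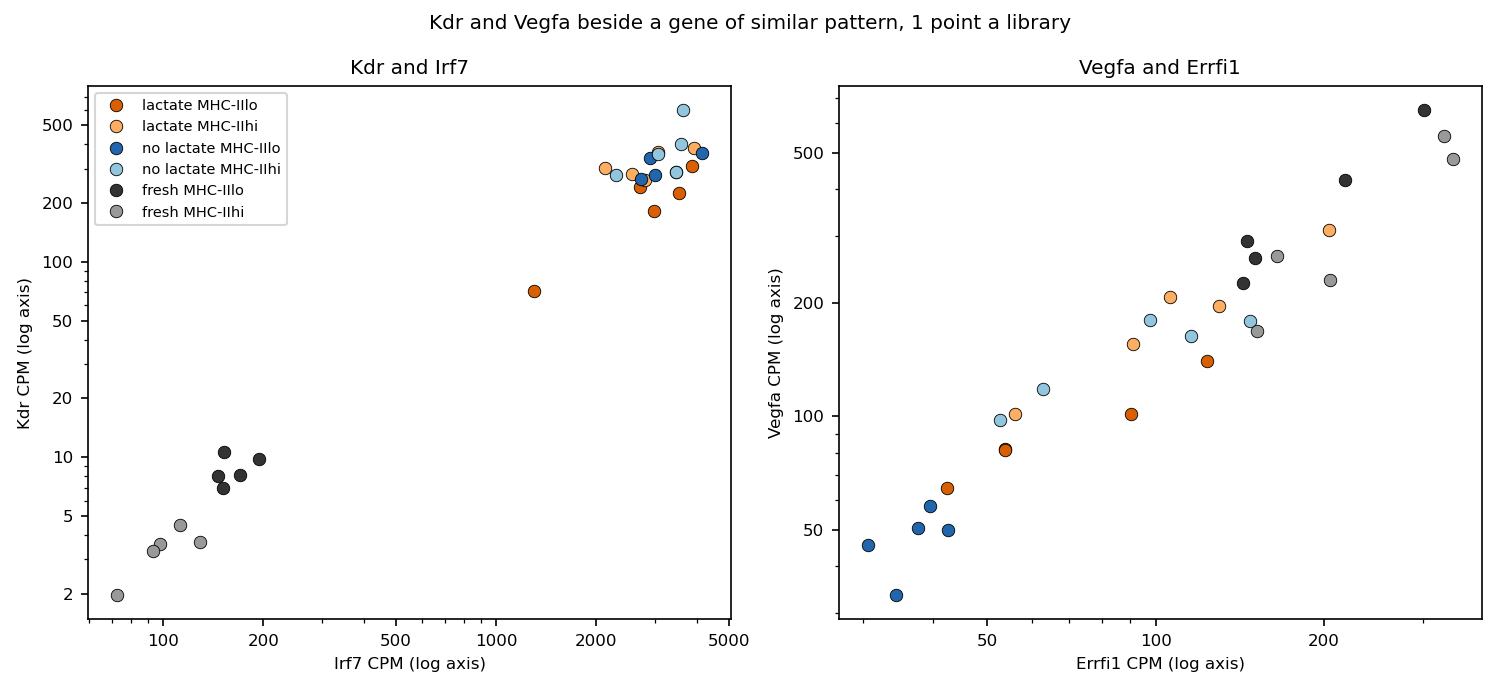
CPM of Kdr against Irf7 (left) and of Vegfa against Errfi1 (right), on log scales, with 1 point per library and colours for the 6 groups. Fresh and cultured libraries form separate clouds for Kdr and Irf7, with lactate MHC-IIlo library 5 between them at 70.6 CPM of Kdr, while Vegfa and Errfi1 rise together from no-lactate MHC-IIlo to fresh cells.

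Other genes of the pathway were read from lists written from general knowledge, and after the levels (mean ± SD of 5 libraries) parentheses give the log2 fold change ± SE with the edgeR adjusted p. Of 4 names of the VEGF-C and VEGF-D arm, Vegfc and Flt4 were tested in culture, and both rose on culture in both subsets. Vegfc, a ligand for lymphatic vessels, was at 7.02 ± 0.923 CPM in no-lactate MHC-IIlo against 1.96 ± 1.06 CPM in fresh MHC-IIlo (1.80 ± 0.38, adjusted p = 0.00033), and at 10.1 ± 1.09 CPM in no-lactate MHC-IIhi against 2.16 ± 1.62 CPM in fresh MHC-IIhi (2.22 ± 0.38, adjusted p = 2.7e-05; SD, n = 5 each). Flt4, its receptor, was at 3.996 ± 0.507 CPM in no-lactate MHC-IIlo against 0.413 ± 0.589 CPM in fresh MHC-IIlo (adjusted p = 2.75e-04), and at 4.74 ± 3.44 CPM in no-lactate MHC-IIhi against 0.0497 ± 0.0707 CPM in fresh MHC-IIhi (adjusted p = 2.05e-06), with 0 reads in 3 of 5 libraries of fresh MHC-IIhi and in 1 of fresh MHC-IIlo. Neither was called between cultured subsets or for lactate, and Vegfc, the only one of them tested between fresh subsets, was not called there.

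Beside the counts of the lists that follow, the share of all genes called stands for scale. Between subsets (MHC-IIlo over MHC-IIhi) it was 9.13% higher and 13.3% lower with lactate, 9.2% higher and 11.6% lower without it, and 14% higher and 15.2% lower in fresh cells, and on culture 27.6% of genes rose and 29.9% fell in MHC-IIlo, and in MHC-IIhi 31.6% rose and 30.4% fell. The difference of culture effects, MHC-IIlo minus MHC-IIhi, was called below 0 for 8.27% of genes and above 0 for 6.03%. With lactate 0.905% of genes rose and 0.581% fell in MHC-IIlo, and in MHC-IIhi 0.206% rose and 0.0441% fell. The median log2 fold change of all genes between subsets and on culture in either subset lay between -0.0073 and 0.021.

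Of 20 HIF targets, all tested, 0 rose and 16 fell in no-lactate MHC-IIlo against no-lactate MHC-IIhi, with a median log2 fold change of -1.24 (all genes: -0.0065). With lactate 0 rose and 13 fell (median -0.93; all genes 0.021), and in fresh cells 4 rose and 4 fell (0.045; all genes -0.0020). Pfkfb3, a regulator of glycolysis, was at 156 ± 12.6 CPM in no-lactate MHC-IIlo and 436 ± 22 CPM in no-lactate MHC-IIhi (-1.50 ± 0.14, adjusted p = 1.06e-07), and Ddit4, an inhibitor of mTOR, at 4.84 ± 1.60 CPM in no-lactate MHC-IIlo and 49.9 ± 17.3 CPM in no-lactate MHC-IIhi (-3.38 ± 0.37, adjusted p = 1.13e-06). On culture without lactate, 0 rose and 16 fell in MHC-IIlo (median -1.48; all genes -0.0073), and 4 rose and 9 fell in MHC-IIhi (-0.38; all genes 0.012), with Pfkfb3 among those that rose (2.35 ± 0.17, adjusted p = 1.14e-10). The difference of culture effects, MHC-IIlo minus MHC-IIhi, was negative for 17 of 20 and positive for 1 (median difference -1.35; all genes -0.021). Lactate raised 1 of 20 in MHC-IIlo, which was Ddit4 (1.66 ± 0.36, adjusted p = 0.0239; median 0.54, all genes 0.013), and called 0 in MHC-IIhi (median 0.28; all genes -0.0055).

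Of 15 regulators of Vegfa, 14 were tested, and 1 rose and 7 fell in MHC-IIlo against MHC-IIhi in each of the cultured states (median -0.44 with lactate, with 9.13% of all genes higher and 13.3% lower, and -0.38 without it, with 9.2% and 11.6%). Vhl, the HIF-degrading ligase subunit, was at 28.8 ± 2.43 CPM in no-lactate MHC-IIlo and 53.8 ± 5.40 CPM in no-lactate MHC-IIhi (-0.91 ± 0.094, adjusted p = 5.18e-07). Epas1, which encodes a HIF alpha subunit, was at 10.1 ± 3.70 CPM in no-lactate MHC-IIlo and 1.75 ± 0.636 CPM in no-lactate MHC-IIhi (2.52 ± 0.32, adjusted p = 7.21e-06), and fell with lactate in MHC-IIlo (-1.30 ± 0.30, adjusted p = 0.0371). Zfp36, which promotes decay of AU-rich messenger RNAs, fell on culture in both subsets, to 141 ± 37.8 CPM in no-lactate MHC-IIlo against 2094 ± 466 CPM in fresh MHC-IIlo (-3.92 ± 0.20, adjusted p = 4.82e-13), and to 240.1 ± 27.3 CPM in no-lactate MHC-IIhi against 2167 ± 341 CPM in fresh MHC-IIhi (-3.19 ± 0.19, adjusted p = 7.42e-12). On culture 3 of 14 rose and 6 fell in MHC-IIlo (median -0.13) and 4 rose and 8 fell in MHC-IIhi (-0.25). In fresh cells 2 of 14 rose and 1 fell in MHC-IIlo (0.087).

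Of 12 class 3 semaphorins and plexins, which share the neuropilins with VEGF, 7 were tested between fresh subsets and 1 rose and 2 fell in MHC-IIlo (median 0.0014), and between cultured subsets 1 of 8 rose and 1 fell with lactate (-0.038) and without it (0.030). Plxnd1, a semaphorin receptor, was at 162 ± 9.62 CPM in fresh MHC-IIlo and 396 ± 39.4 CPM in fresh MHC-IIhi (-1.30 ± 0.077, adjusted p = 1.7e-07), and was also lower in MHC-IIlo with lactate (-1.42 ± 0.18, adjusted p = 6.88e-06) and without it (-1.07 ± 0.18, adjusted p = 0.000128). Sema3c, a secreted semaphorin, was at 2.04 ± 0.584 CPM in fresh MHC-IIlo and 0.338 ± 0.120 CPM in fresh MHC-IIhi (2.57 ± 0.36, adjusted p = 0.000155). On culture 3 of 8 rose and 3 fell in each subset (median -0.033 in MHC-IIlo and 0.21 in MHC-IIhi), near the share of all genes, and Plxna1 rose to 961 ± 91.6 CPM in no-lactate MHC-IIlo against 167 ± 9.87 CPM in fresh MHC-IIlo (2.49 ± 0.12, adjusted p = 1.41e-13). Lactate raised Sema3c (1.43 ± 0.35, adjusted p = 0.0444) and lowered Plxna2 (-1.03 ± 0.22, adjusted p = 0.0239) in MHC-IIlo, and called 0 of 8 in MHC-IIhi.

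Of 36 genes of signalling below the VEGF receptors, 4 of 34 tested rose and 9 fell in fresh MHC-IIlo against fresh MHC-IIhi (median -0.0026), 1 of 33 rose and 10 fell with lactate (-0.17), and 1 rose and 7 fell without it (-0.105). On culture 7 of 35 rose and 19 fell in MHC-IIlo (-0.38), and 10 rose and 16 fell in MHC-IIhi (-0.19), beside the shares of all genes given above. Src, a kinase activated downstream of KDR, rose on culture in MHC-IIlo (1.24 ± 0.089, adjusted p = 1.23e-10) and MHC-IIhi (1.34 ± 0.089, adjusted p = 2.9e-11), and Prkcb, a protein kinase C, fell in MHC-IIlo (-2.34 ± 0.17, adjusted p = 2.08e-10) and MHC-IIhi (-2.19 ± 0.17, adjusted p = 3.34e-10). Lactate called 0 of 33 in either subset.

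Of 23 other angiogenic and angiostatic factors, 10 of 18 tested rose and 1 fell in fresh MHC-IIlo against fresh MHC-IIhi (median 0.59; all genes -0.0020). Col18a1, the source of endostatin, rose (1.98 ± 0.22, adjusted p = 2.84e-05), as did Pdgfc (1.55 ± 0.12, adjusted p = 1.95e-06), while Pdgfb, a growth factor for pericytes, was at 12.5 ± 2.72 CPM in fresh MHC-IIlo and 39.6 ± 2.55 CPM in fresh MHC-IIhi (-1.66 ± 0.13, adjusted p = 1.86e-06). In culture 5 of 19 rose and 4 fell in MHC-IIlo with lactate (median 0.063), and 6 rose and 5 fell without it (-0.20). Vash1, an inhibitor of angiogenesis, was at 0.0303 ± 0.0323 CPM in no-lactate MHC-IIlo and 1.54 ± 0.344 CPM in no-lactate MHC-IIhi (adjusted p = 1.27e-07). On culture 2 of 19 rose and 11 fell in MHC-IIlo (-0.94) and 6 rose and 7 fell in MHC-IIhi (0.10), with Angpt2, an antagonist of the TIE2 receptor, higher in MHC-IIlo at 44.3 ± 4.88 CPM in culture against 8.44 ± 1.77 CPM fresh (2.36 ± 0.17, adjusted p = 1.3e-10). Lactate called 0 of 19 in either subset.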

How the data were processed

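The deposited tables hold raw read counts of 46603 genes and FPKM of 13778 genes in 30 libraries. Per the submitters' processing notes, reads were processed with Trimmomatic, STAR and featureCounts on GRCm38, with no versions given. The raw counts deposited by the authors were tested as they stand; the FPKM deposited by the authors served only as an alternative. Whether counting used strand is not given in the sources used here. Column headers placed cultured libraries in a group but not with a single sample record.

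Genes were filtered with filterByExpr, scaled by TMM and tested with edgeR 4.0.16 (quasi-likelihood F test, 2-sided, Benjamini-Hochberg over all genes tested; limma 3.58.1, DESeq2 1.42.0 and R 4.3.3 for alternatives). Fresh subsets were fitted on 10 libraries, cultured groups on 20, and culture against fresh on the 20 without lactate, with group means. Printed CPM are scaled by TMM over all 30 libraries. Intervals of fold changes are the estimate ± normal 95% limits. The procedure was run on simulated counts with 200 changed genes. These counts held no effect shared between libraries, so the run does not cover a source shared by same-numbered libraries. Motifs were searched in windows of 250 bases.

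The named genes were the members, the 3 list genes with the smallest p past the threshold, chosen per comparison, and 3 genes of highest correlation per member with a mean log2 CPM of at least 3. Members and lists were chosen with earlier results of these data known.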

Additional observations from a re-analysis of the deposited data

Results flagged for a closer look

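Flt1 in library 3 of fresh MHC-IIlo was at 8.338 CPM, far from the next library of its group at 3.102 CPM. It was the only such value in 42 groups of 5 libraries (7 genes in 6 groups), and chance alone marks about 1 in 20 groups.

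The change on culture without lactate differed between MHC-IIlo and MHC-IIhi for 5 of the 7 members (14 such differences were tested, 7 for culture and 7 for lactate). The log2 difference, MHC-IIlo minus MHC-IIhi, was -1.771 for Vegfa, -1.801 for Pgf, -1.687 for Kdr, -0.8318 for Nrp1 and -0.6242 for Nrp2, with edgeR adjusted p of 0.00827, 0.0355, 3.86e-04, 0.018 and 0.00518. The Pgf call was lost when any of 11 of the 20 libraries was left out. With all 30 libraries in 1 edgeR fit the Nrp1 call was lost (adjusted p 0.141). Calls of Vegfa, Kdr and Nrp2 held in all 28 alternatives.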

How the results depend on the processing

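Of 31 calls of members, 21 kept their direction and their side of the threshold in all alternatives run, 10 were lost in at least 1, and 0 reversed; the cause was not tested. Counts of members called changed by over 1.5 times in 3 comparisons. Lactate in MHC-IIhi gave 0 members in place of 1 with no filter and with all 30 libraries in 1 fit, and 0 to 1 with a library left out. It also gave 0 on log2(FPKM + 1) and on log2(FPKM + 0.1), where the FPKM filter left 6 of 7 members and Flt1, the call in question, was not among those tested. Lactate in MHC-IIlo gave 5 in place of 2 with DESeq2, with voom quality weights and with the replicate block, 4 with all 30 libraries and 2 to 5 with a library left out, and 1 on log2(FPKM + 0.1), where Flt1 was likewise not tested. The culture effect gave 3 in place of 5 with all 30 libraries.

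Counts of all genes called moved most for lactate. In MHC-IIhi 34 genes became 133 with DESeq2, 59 on log2(FPKM + 1) without a filter, 81 with the replicate block, 54 without lactate MHC-IIlo library 5, 53 with all 30 libraries and 8 to 27 with 1 library of the pair of groups left out. In MHC-IIlo 202 became 715 with DESeq2, 1502 with voom, 1111 with the block, 531 with all 30, 133 without library 5 of lactate MHC-IIlo and 53 to 758 with 1 library left out. The difference of lactate effects gave 3 genes with DESeq2, 2 with voom, 2 with the block, 1 with all 30 libraries and 0 to 8 with 1 library left out (8 without library 1 of lactate MHC-IIlo) in place of 0, and voom gave 4335 in place of 2830 between no-lactate subsets.

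Values that changed sign were all of members not called. On FPKM with pseudocounts of 1, 0.1 and 1 without a filter, Nrp2 gave -0.16, -0.16 and -0.16 between no-lactate subsets, 0.12, 0.12 and 0.12 for lactate in MHC-IIlo and 0.036, 0.036 and 0.036 for the difference of lactate effects, and Nrp1 gave -0.0015, -0.0038 and -0.0015 for lactate in MHC-IIhi. Without a filter on FPKM, Flt1 gave 0.0011 between no-lactate and 0.00058 between lactate subsets. With voom, Nrp2 gave 0.0081 between lactate subsets and Nrp1 -0.14 for lactate in MHC-IIhi. Without lactate MHC-IIlo library 5, the lactate subsets gave 0.020 for Nrp1 and 0.029 for Nrp2. With 1 library left out in turn, values ran from -0.17 to 0.36 for Vegfa between fresh subsets, -0.19 to 0.013 for Flt1 between no-lactate subsets, -0.70 to 0.20, -0.53 to 0.055 and -0.14 to 0.029 for Pgf, Nrp1 and Nrp2 between lactate subsets, and -0.75 to 0.13, -0.18 to 0.14 and -0.037 to 0.088 for the same genes for lactate in MHC-IIhi. The ranges were -0.22 to 0.072 for Flt1 for the difference of lactate effects, -0.082 to 0.78 for Flt1 for culture in MHC-IIlo and -0.061 to 0.21 for Vegfb for the difference of culture effects.

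Replicate numbers were checked by the correlation of deviations from group means between same-numbered libraries, which ran from 0.07 to 0.497 between fresh subsets (best with its own number in 4 of 5), -0.0184 to 0.273 between no-lactate subsets (3 of 4), -0.0423 to 0.484 between lactate subsets (2 of 5), -0.322 to 0.441 for lactate in MHC-IIhi (2 of 4) and 0.053 to 0.337 in MHC-IIlo (3 of 5). Every comparison thus had at least 1 pair at or under 0.1, while other libraries matched best with their own number. Whether same-numbered libraries share a source is not settled by these values, and the main tests used no block. The replicate block gave 5004 genes in place of 3737 between fresh subsets, 3210 in place of 2830 without lactate and 4105 in place of 3045 with lactate, with 6, 4 and 3 members, the last adding Kdr (-0.73, adjusted p = 0.0349). For lactate in MHC-IIlo it added Vegfa (0.0271), Pgf (0.0454) and Nrp1 (0.00678). For lactate in MHC-IIhi it turned Pgf to 0.50, Nrp1 to -0.20 and Nrp2 to -0.040, and it gave 0.10 for Flt1 for the difference of lactate effects. No paired analysis was possible for culture against fresh because no label ties the numbers of cultured libraries to those of fresh ones. Depth limits Flt1, at 25 to 193 reads per library, and Kdr in fresh MHC-IIhi, at 36 to 89 reads.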
